A study of Mus musculus with 6 samples.

Results

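Of the 33971 genes in the expression table, 9 encode enzymes of the tricarboxylic acid (TCA) cycle and are described here. They were chosen by name, as the rows of citrate synthase (Cs), isocitrate dehydrogenases Idh2 and Idh3a, Ogdh, the succinyl-CoA synthetase subunits Suclg1, Sucla2 and Suclg2, fumarate hydratase (Fh1) and malate dehydrogenase Mdh2. All 9 were in the table, and all 9 passed the filter on low counts. RNA sequencing was performed on articular cartilage of wildtype (WT) mice, in 3 libraries from 2-month-old and 3 from 18-month-old animals. Neither group carries a treatment in the labels, and age is the labelled difference. The study's methods name male mice, which the 2-month libraries go against (see the Xist counts given with the markers), and how many animals entered a library was not given in the sources used here, so p-values measure the spread between libraries.

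The TCA cycle runs in the mitochondrial matrix. It burns the acetyl group of acetyl-CoA to carbon dioxide and hands the electrons to the respiratory chain as NADH and reduced flavin. Its intermediates also leave the cycle for the synthesis of amino acids, lipids and heme, and are topped up by reactions called anaplerosis. Articular chondrocytes live in a tissue without blood vessels and at low oxygen, and are known for drawing most of their energy from glycolysis. Cs joins acetyl-CoA to oxaloacetate, Idh3a and Idh2 oxidize isocitrate, Ogdh is the entry subunit of the alpha-ketoglutarate dehydrogenase complex, and Suclg1 pairs with either Sucla2 or Suclg2 to make ATP or GTP from succinyl-CoA. Fh1 then turns fumarate into malate and Mdh2 turns malate into oxaloacetate.

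The libraries held 48171507 to 51683577 counts at 2 months and 55201357 to 59085179 at 18 months. The makeup of the tissue differed between the ages far more than any TCA enzyme did. The 14 chondrocyte marker genes were all lower at 18 months by the test used below, with a summed FPKM of 6540 to 9050 at 2 months and 67.3 to 220 at 18 months, and Matn1 and Matn3 were at 0 counts in at least 1 library of 18-month cartilage. The 10 neutrophil markers summed to 8.89, 3648 and 57.9 FPKM in 2-month replicates 1, 2 and 3 and to 42000 to 47100 at 18 months, and the 9 erythroid markers in the table to 288, 7380 and 788 and then to 30000 to 39800. The 2-month replicate 2 thus stood apart from the other 2-month libraries. None of the 10 neutrophil markers had an adjusted p below 0.05 by edgeR (0.0506 to 0.146), though all 10 were higher without overlap. By the same test 3 of 9 erythroid, 3 of 7 monocyte and macrophage, and 3 of 6 proliferation genes were called higher. So were 4 of 5 T and NK lymphocyte and 4 of 5 megakaryocyte markers, against 14.9% of all tested genes. Summed FPKM was also higher in all 18-month libraries for monocyte and macrophage markers (6.31 to 151 against 544 to 550), T and NK lymphocyte markers (0.0548 to 7.68 against 91.2 to 106), megakaryocyte markers (0.889 to 43.6 against 933 to 1410), adipocyte markers (2 to 13.3 against 33.5 to 40.9) and proliferation genes (3.12 to 83 against 293 to 303). The adipocyte rise was in Fabp4 and Adipoq (adjusted p of 0.00269 and 0.286 by edgeR). Cidec was at 0 in every 18-month library. Plin1 had 0, 4 and 5 counts in 2-month replicates 1, 2 and 3 and 0, 0 and 8 in the 18-month ones, and neither gene was tested. The summed FPKM was lower for skeletal muscle markers (62 to 98.8 against 5.34 to 6.57) and synovial and tendon fibroblast markers (2710 to 6800 against 277 to 1440). Tnni2 made up most of the muscle sum at 2 months (44.0 to 72.8 FPKM), and Mylpf, Actn3 and Myh2 overlapped between the ages. Most of the fibroblast sum was Prg4 (2575 to 6475 FPKM against 265.8 to 1389). Scx, Pdgfra and Thbs4 of that list were lower as well, while Tnmd overlapped between the ages. The osteoblast sum was lower too (1710 to 4700 against 1200 to 1210), but through Ibsp alone, without which it was 349.1, 3074 and 312.2 against 1010 to 1023. Summed FPKM overlapped for B lymphocyte markers (1.01 to 95.4 against 66.4 to 81.6), osteoclast markers (37.3 to 2410 against 948 to 1110) and endothelial markers (1.62 to 37.3 against 23.7 to 25). In these lists the overlap came from 2-month replicate 2 alone, which lay above every 18-month library. The 2-month replicates 1 and 3 were at 1.01 and 1.68 (B lymphocyte), 37.3 and 429.5 (osteoclast) and 1.62 and 5.54 (endothelial), below every 18-month library. Xist, expressed from the inactive X chromosome, had 88239 to 102417 counts at 2 months and 11 to 30 at 18 months, while the Y-linked Ddx3y had 0 to 10 and 4333 to 4839, which in the 2-month libraries is the pattern of female animals and goes against the methods. Age and this sex pattern cannot be told apart in any result here. The part of these differences in the TCA enzyme results was not tested, and in bulk tissue a change in the cells present and a change in RNA per cell cannot be told apart.

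The promoters of the enzymes with the largest change (Cs), the next largest (Mdh2) and the smallest (Idh2) are shown because these genes mark the ends of the range of responses described below. They are RefSeq sequences of the GRCm38 build, read 5′ to 3′ on the strand of the gene and ending before its start. The capitals mark matches, on either strand, to the CCAAT letters of the NF-Y box and the GGGCGG letters of the GC box. The Cs stretch is chr10:128337477-128337726 (plus strand), the Mdh2 stretch chr5:135778399-135778479 (plus strand) and the Idh2 stretch chr7:80115393-80115600 (minus strand).
Cs: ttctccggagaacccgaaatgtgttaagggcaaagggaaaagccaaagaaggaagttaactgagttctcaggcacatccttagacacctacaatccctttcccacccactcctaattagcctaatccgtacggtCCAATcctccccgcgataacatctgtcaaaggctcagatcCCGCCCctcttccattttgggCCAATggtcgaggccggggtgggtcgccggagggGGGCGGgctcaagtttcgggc
Mdh2: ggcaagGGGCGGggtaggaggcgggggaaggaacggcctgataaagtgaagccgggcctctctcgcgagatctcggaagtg
Idh2: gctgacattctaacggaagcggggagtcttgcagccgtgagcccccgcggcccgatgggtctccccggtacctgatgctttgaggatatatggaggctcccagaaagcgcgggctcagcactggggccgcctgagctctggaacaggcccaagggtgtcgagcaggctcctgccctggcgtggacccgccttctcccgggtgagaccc
The Cs stretch holds 4 matches in 250 bases, the Mdh2 stretch 1 in 81 and the Idh2 stretch 0 in 208. As the lengths differ, these counts cannot be ranked against the fold changes.

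In the wider window of 300 bases, from 250 before to 50 after a start, 8 of the 9 genes had RefSeq sequence (Idh3a is named only). A gene was searched in 1 window, the one listed first where it has several, as Ogdh does with 6. The GC box letters were found in 7 of these 8 genes and in 35.9% of 27025 genes, each with 1 window, and Suclg1 was the gene without them. The CCAAT letters were found in 5 of 8 against 37.9%, and here Idh2 had them. The TGACG letters of the cyclic AMP response half-site were found in 5 of 8 against 21%, and the TGCGCA letters of the NRF1 half-site in 1 of 8 (Mdh2) against 8.06%. The CCGGAAG letters of an ETS site were in 0 of 8 against 9.12%, and the AAGGTCA letters of the ERR half-site in 0 of 8 against 4.66%. None of these 6 motifs contains another, both strands were searched, and a match is a description of letters and not of a bound site.

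All 9 TCA enzymes had a higher fitted level at 18 months, and 3 of them passed the test with a fold change above 2. These were Cs, Mdh2 and Idh3a. The test was edgeR's quasi-likelihood test on the deposited counts, and a gene was called at a Benjamini-Hochberg adjusted p below 0.05 over 20397 genes and a log2 fold change above 1 or below -1. In this comparison 36.3% of all tested genes were called, 14.9% as higher and 21.3% as lower, so 3 of 9 called higher has to be read against a large background. The split of all calls moved with the fit, from 41.2% higher here to 57.8% with limma on log2(FPKM + 1), 33.9% with limma on TPM and 52.3% with edgeR without 2-month replicate 2. By adjusted p alone, 6 of the 9 were higher (Cs, Idh3a, Suclg1, Sucla2, Fh1 and Mdh2), against 23.4% of all tested genes, while 51.3% of all genes passed in either direction and 27.9% as lower. None was lower by edgeR or DESeq2 on counts or by limma on log2 FPKM, Idh2 was lower by adjusted p after quantile normalization (below), and at an unadjusted p below 0.05 edgeR placed 7 higher and 0 lower. The 3 libraries of one age lay above the 3 of the other in 7 of the 9 genes, in each case with 18 months higher, as it did in 33.9% of all tested genes, while the reverse held in 34.6%. The median log2 fold change of the 9 was 0.83, beside -0.02 for all tested genes. The summed counts of the 9 genes were 0.0407%, 0.0574% and 0.0416% of the counts of 2-month replicates 1, 2 and 3 and 0.0877%, 0.0825% and 0.0822% of those of 18-month replicates 1, 2 and 3.

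**Figure D1:**
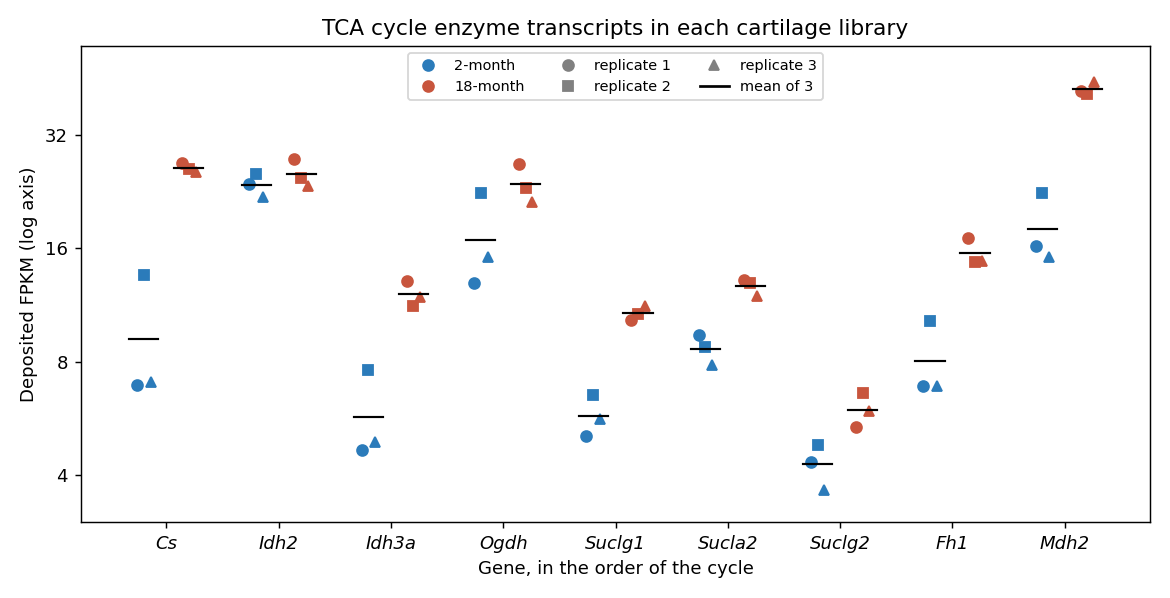
Deposited FPKM (log axis) of the 9 TCA cycle genes in each library, with 2-month libraries in blue, 18-month libraries in red, a marker shape for each replicate number and a bar at the mean of 3. The ages do not overlap in 7 genes and overlap in Idh2 and Ogdh, and the square of 2-month replicate 2 is the highest of its age in every gene but Sucla2.

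Citrate synthase, which admits acetyl-CoA to the cycle and is widely used as a measure of mitochondrial content, had the largest difference of the 9. Cs (ENSMUSG00000005683, chr10:128337734-128362479) was at 6.94, 13.6 and 7.06 FPKM (fragments per kilobase, scaled to library depth) in 2-month replicates 1, 2 and 3 and at 26.9, 25.9 and 25.5 FPKM in 18-month replicates 1, 2 and 3. All 18-month libraries were above all 2-month libraries, and 2-month replicate 2 was the highest of its age. The log2 fold change was 1.45 ± 0.25 (SE, n = 3 per age), 2.72-fold, with an adjusted p of 0.00605 by edgeR. Leaving out any 1 library kept the call, with log2 fold changes of 1.3 to 1.8. Csl, a related sequence in the genome that could share reads with Cs, held 0 to 14 counts in the 6 libraries.

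Mitochondria hold isocitrate dehydrogenases of different kinds, and their transcripts differed in response. Idh3a, the catalytic subunit of the NAD+-dependent enzyme of the cycle proper, was at 4.67, 7.58 and 4.89 FPKM in the 2-month libraries and 13.1, 11.3 and 11.9 FPKM in the 18-month libraries. The ages did not overlap, and 2-month replicate 2 again lay nearest to the older libraries. Idh3a (ENSMUSG00000032279, chr9:54586334-54604661) had a log2 fold change of 1.01 ± 0.18 (SE) and an adjusted p of 0.00592 by edgeR. This value sits at the fold limit. The call was lost without 2-month replicate 1 (0.91), 2-month replicate 3 (0.94) or 18-month replicate 1 (0.97), while the adjusted p stayed below 0.05 in each, at most 0.0281.

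Idh2, the NADP+-dependent mitochondrial enzyme that also supplies NADPH, was at 23.6, 25.2 and 21.8 FPKM at 2 months and 27.7, 24.5 and 23.4 FPKM at 18 months. The ages overlapped, and 2-month replicates 1 and 2 stood within the range of the older libraries. Idh2 (ENSMUSG00000030541, chr7:80094846-80115392) had a log2 fold change of 0.02 ± 0.10 (SE) and an adjusted p of 0.88 by edgeR, the smallest difference of the 9. Its sign depended on scaling, with -0.34 (adjusted p = 0.0875) by limma on values rescaled to TPM, in which the values of a library sum to a fixed total, and -0.27 (adjusted p = 0.0456) by limma after quantile normalization. The sign depended on single libraries too, as leaving out 1 library gave -0.029 to 0.069 by edgeR. The ratio of Idh3a to Idh2 within a library is free of scaling. It was 0.198, 0.302 and 0.225 at 2 months and 0.474, 0.460 and 0.508 at 18 months, with no overlap.

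Ogdh, the subunit of the alpha-ketoglutarate dehydrogenase complex that binds the substrate, was at 12.9, 22.4 and 15.2 FPKM at 2 months and 26.8, 23.0 and 21.3 FPKM at 18 months. The ages overlapped through 2-month replicate 2 alone, which lay above 18-month replicate 3. Ogdh (ENSMUSG00000020456, chr11:6291633-6356642) had a log2 fold change of 0.43 ± 0.19 (SE) with an adjusted p of 0.112 by edgeR. Without 2-month replicate 2 the log2 fold change was 0.65 with an adjusted p of 0.00802, and DESeq2 gave an adjusted p of 0.024 on all 6 libraries.

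Succinyl-CoA synthetase is the step of the cycle that makes ATP or GTP directly. Suclg1, the alpha subunit shared by both forms of the enzyme, was at 5.09, 6.54 and 5.63 FPKM at 2 months and 10.3, 10.7 and 11.2 FPKM at 18 months. The ages did not overlap and the libraries of each age lay close together. Suclg1 (ENSMUSG00000052738, chr6:73248382-73276911) had a log2 fold change of 0.83 ± 0.11 (SE) with an adjusted p of 0.00261 by edgeR. Its adjusted p was at most 0.0171 when any 1 library was left out.

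The beta subunits Sucla2 and Suclg2, which set whether ATP or GTP is made, had smaller fitted values than Suclg1, a difference that was not tested. Sucla2, of the ATP-forming enzyme, was at 9.40, 8.76 and 7.84 FPKM at 2 months and 13.1, 12.9 and 12.0 FPKM at 18 months. The ages did not overlap. By deposited FPKM, Sucla2 was the only enzyme of the 9 in which 2-month replicate 2 was not the highest of its age. On log2 CPM, Idh2 was a further exception. Sucla2 (ENSMUSG00000022110, chr14:73525319-73595783) had a log2 fold change of 0.47 ± 0.11 (SE) with an adjusted p of 0.0158 by edgeR, which became 0.0678 without 2-month replicate 3 (0.42) and 0.0622 without 18-month replicate 2 (0.45).

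Suclg2, of the GTP-forming enzyme, was at 4.33, 4.82 and 3.66 FPKM at 2 months and 5.38, 6.62 and 5.91 FPKM at 18 months. It was the lowest of the 9 at both ages, and its libraries did not overlap between ages. Suclg2 (ENSMUSG00000061838, chr6:95473009-95718800) had a log2 fold change of 0.41 ± 0.14 (SE) with an adjusted p of 0.0527 by edgeR, just outside the limit. The adjusted p was 0.037 without 2-month replicate 2 and 0.0415 without 18-month replicate 1. DESeq2 and limma on FPKM also placed it below 0.05, and limma on TPM gave 0.816.

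The balance of the beta subunits was measured as the share of Suclg2 in the summed FPKM of Suclg2 and Sucla2. It was 31.5%, 35.5% and 31.8% in the 2-month libraries and 29.1%, 33.9% and 33.1% in the 18-month libraries. The means were 32.9% ± 2.19 and 32.0% ± 2.60 (SD, n = 3 each), and the ages overlapped (two-sided exact permutation p = 0.6, where 0.1 is the smallest that 3 against 3 libraries can give). This does not show that the balance was the same at both ages. The sign of the difference turned without 2-month replicate 2 (0.32 percentage points) or 18-month replicate 1 (0.54 percentage points).

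Fh1, the fumarate hydratase of mitochondria and cytosol, was at 6.89, 10.2 and 6.91 FPKM at 2 months and 17.1, 14.7 and 14.8 FPKM at 18 months. The ages did not overlap. Fh1 (ENSMUSG00000026526, chr1:175600374-175625635) had a log2 fold change of 0.89 ± 0.15 (SE) with an adjusted p of 0.00576 by edgeR, and passed the fold limit only without 2-month replicate 2 (1.07). Kmo, a kynurenine pathway gene, lies over it on the opposite strand and had 10, 263 and 19 counts in 2-month replicates 1, 2 and 3 and 721, 437 and 442 counts in 18-month replicates 1, 2 and 3. Fh1 had 1287 to 2035 counts and 3142 to 3890 counts at those ages. The library kit kept strand, but whether the counting used it was not given in the sources used here, so reads of the pair may not be separated.

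Mdh2, which closes the cycle by oxidizing malate in the mitochondrion, was at 16.3, 22.5 and 15.1 FPKM at 2 months and 41.8, 41.1 and 44.1 FPKM at 18 months. It was the highest of the 9 in every 18-month library, with a wide gap to every 2-month library. Mdh2 (ENSMUSG00000019179, chr5:135778480-135790391) had a log2 fold change of 1.17 ± 0.14 (SE), 2.25-fold, with an adjusted p of 0.0023 by edgeR. Leaving out any 1 library kept the call, with log2 fold changes of 1.08 to 1.34.

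**Figure D2:**
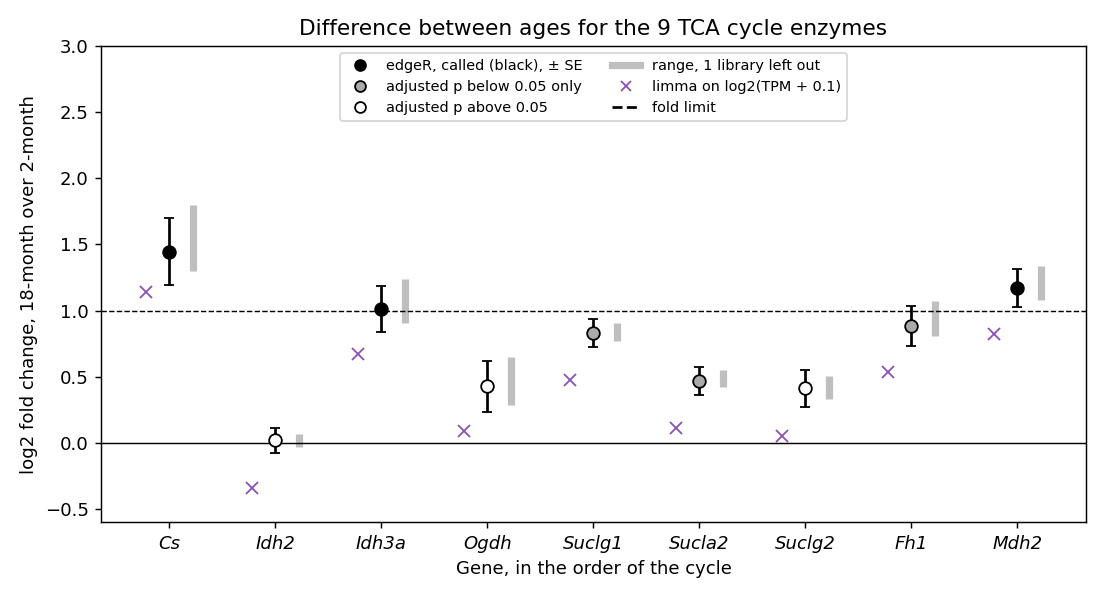
Log2 fold change of 18-month over 2-month cartilage for each of the 9 genes by edgeR, with error bars of 1 SE, grey bars for the range when 1 library is left out and crosses for limma on log2(TPM + 0.1). Cs, Idh3a and Mdh2 lie above the dashed fold limit, Idh2 lies at 0.02, and the crosses lie lower for every gene.

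The log2 fold changes of the 9 enzymes ran from 0.02 to 1.45. The number that passed the fold limit, and the number that passed by adjusted p, depended on the scale chosen for the libraries. Rescaling the deposited FPKM to TPM moved the median of all tested genes to -0.37 and that of the 9 enzymes to 0.47, a distance of 0.85. The distance was 0.85 by edgeR and 0.82 by limma on the FPKM as deposited. On TPM, limma called Cs alone among the 9 (1.14, adjusted p = 0.022), with Mdh2 at 0.82 (adjusted p = 0.0138), Suclg1 at 0.47 (adjusted p = 0.0481) and Idh3a at 0.67 (adjusted p = 0.0605). By adjusted p alone, limma on TPM placed 3 of the 9 higher. Fh1 was at 0.54 (adjusted p = 0.0857) and Sucla2 at 0.11 (adjusted p = 0.477) in that fit. After quantile normalization the medians were 0.65 for the 9 enzymes and -0.10 for all genes, and limma again called Cs alone (1.22, adjusted p = 0.00611). By adjusted p alone, limma placed 5 higher and 1 lower there, with Sucla2 at 0.26 (adjusted p = 0.103). Against the stricter null of a fold change of 2 (edgeR's glmTreat), 0 of the 9 had an adjusted p below 0.05, and 2 had an unadjusted p below 0.05. The adjusted p there was 0.0801 for Cs, 0.15 for Mdh2 and 0.506 for Idh3a.

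The 2-month replicate 2, the library with more neutrophil and erythroid marker RNA than the other 2-month libraries, was not moved by the same extent in each enzyme. Its place was measured as the percentage of the way from the mean of 2-month replicates 1 and 3 to the 18-month mean, on log2 CPM. The median over all tested genes was 29.4%. Ogdh was at 86%, Cs at 46.2%, Idh3a at 43.5% and Fh1 at 41.2%. Suclg2 was at 29.7%, Mdh2 at 29%, Suclg1 at 16.9% and Sucla2 at -25.6%. For Idh2 the ages differ too little on this scale (0.02) for a percentage to be read. Without this library 8 of the 9 enzymes had an adjusted p below 0.05 by edgeR and 4 were called (Cs, Idh3a, Fh1 and Mdh2). Of all genes tested in that fit, 32% were higher by adjusted p and 23.3% were called higher, so the background rose too.

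The make-up of the cycle's transcripts shifted between the ages, as shares of the summed FPKM of the 9 genes in a library, which no scaling between libraries can move. Idh2 took 26.2%, 20.7% and 24.8% at 2 months and 15.2%, 14.3% and 13.7% at 18 months, the largest fall in share. Mdh2 took 18.0%, 18.5% and 17.2% and then 22.9%, 24.1% and 25.9%. Cs took 7.70%, 11.2% and 8.01% and then 14.8%, 15.2% and 15.0%. In these 3 genes the ages did not overlap, with Idh2 lower and Mdh2 and Cs higher at 18 months.

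Smaller shifts without overlap were seen for Idh3a (5.66% ± 0.53 to 6.92% ± 0.30, SD, n = 3 each), Fh1 (7.97% ± 0.40 to 8.91% ± 0.40) and Suclg2 (4.31% ± 0.44 to 3.44% ± 0.46). The shares of Ogdh (16.7% ± 2.10 and 13.6% ± 1.10), Sucla2 (8.85% ± 1.61 and 7.27% ± 0.27) and Suclg1 (5.81% ± 0.52 and 6.19% ± 0.47) overlapped between the ages. As shares add up to the whole, a rise of 1 gene lowers the others, and no test was made on them. Per length of the longest coding transcript, the difference for Fh1 was 0.32 percentage points in place of 0.93, and its shares overlapped between the ages. The shift of Fh1 without overlap thus holds for deposited FPKM only. On the same length scale the shares of Ogdh and Sucla2 were lower at 18 months without overlap, for Sucla2 by a narrow gap. The overlap given for Ogdh and Sucla2 thus also holds for deposited FPKM only.

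**Figure D3:**
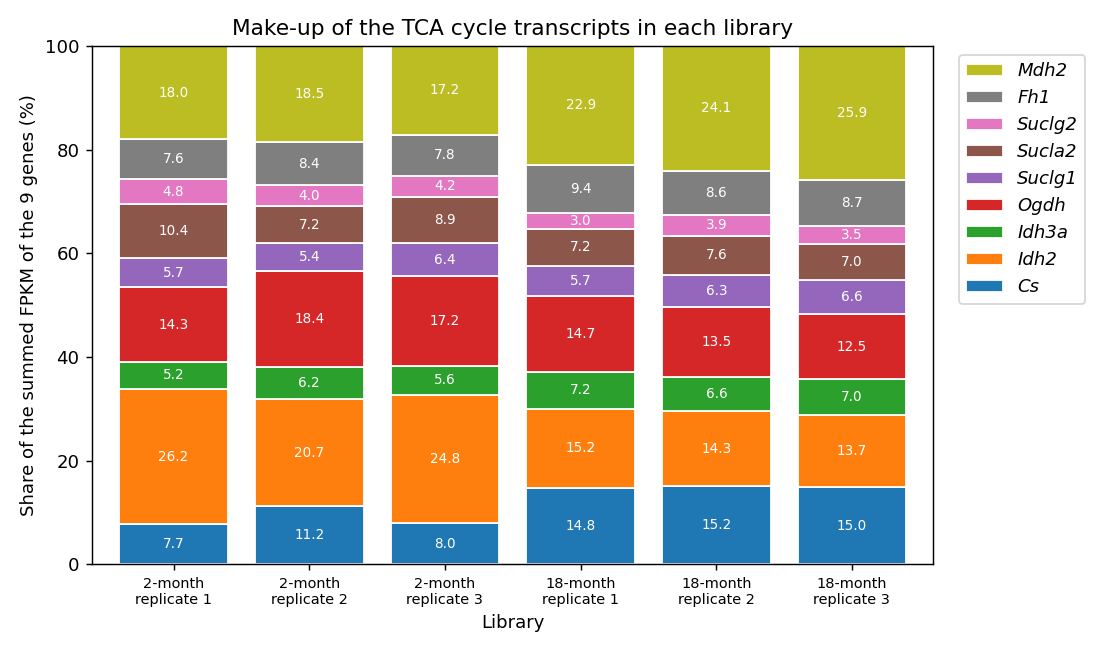
Share of each of the 9 genes in their summed FPKM (percent, stacked to the whole) in each of the 6 libraries, with the percentage printed in each block. The Idh2 block shrinks from 20.7% to 26.2% at 2 months to 13.7% to 15.2% at 18 months, while the Cs and Mdh2 blocks grow.

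By deposited FPKM the order at 2 months was Idh2, Mdh2, Ogdh, Cs, Sucla2, Fh1, Suclg1, Idh3a and Suclg2, and only Fh1 and Suclg1 were neighbours in it without overlapping libraries. At 18 months the order was Mdh2, Cs, Idh2, Ogdh, Fh1, Sucla2, Idh3a, Suclg1 and Suclg2, in which Cs and Idh2, Idh2 and Ogdh, and Sucla2 and Idh3a overlapped. These levels depend on the gene length used, because the deposited FPKM of the 9 genes follows the union of all annotated exons as its length, up to a factor of 1.13 to 1.17 that differs between libraries and hardly between genes. That union is 1.29 times the longest coding transcript for Fh1 but 3.04 times for Suclg1 and 2.45 times for Mdh2. Per kilobase of the longest coding transcript, Mdh2 led at both ages, with 51.2 ± 8.22 CPM (counts scaled to library depth) per kilobase at 2 months and 115.2 ± 5.78 at 18 months (SD, n = 3 each). Idh2 followed at 2 months with 41.0 ± 1.58 and Cs at 18 months with 57.3 ± 0.44. Suclg2 was lowest on this scale too, at 6.87 ± 0.65 and 9.14 ± 1.11. Changes between ages within a gene do not depend on its length.

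Enzymes of the cycle outside these 9 were read from the same fit. In it 14.9% of all tested genes were called higher, 21.3% were called lower and 23.4% were higher by adjusted p alone. Of 10 other TCA genes, 3 were called higher, 1 was called lower and 7 were higher by adjusted p alone, with a median log2 fold change of 0.49. Dlst, the transferase core of the alpha-ketoglutarate dehydrogenase complex, rose from 6.44 ± 2.25 to 15.9 ± 0.42 FPKM (SD, n = 3 each), a log2 fold change of 1.25 ± 0.21 (SE) with an adjusted p of 0.00584 by edgeR. It thus rose where its partner Ogdh did not pass the test, and the ratio of Ogdh to Dlst went from 2.61, 2.48 and 2.84 to 1.72, 1.46 and 1.3 without overlap. Sdhb, the iron-sulfur subunit of succinate dehydrogenase, rose by 1.06 on the log2 scale (adjusted p = 0.00238), and its call was lost without 2-month replicate 3 (0.97). Sdhd, a membrane anchor of the same complex and the gene with the highest FPKM of the list averaged over the 6 libraries, stood at 36.8 ± 5.31 and 77.2 ± 6.60 FPKM with a log2 fold change of 1.0 (adjusted p = 0.00247). As it lay on the limit, its call was lost without 2-month replicate 1, 2-month replicate 3, 18-month replicate 2 or 18-month replicate 3 (0.96 to 0.97). Ogdhl, a tissue-restricted relative of Ogdh, fell by 2.48 on the log2 scale (adjusted p = 0.0283) from a low level of 0.28 ± 0.07 to 0.05 ± 0.05 FPKM. Its call was lost without 2-month replicate 1 (-2.28), 2-month replicate 3 (-2.45), 18-month replicate 1 (-2.19) or 18-month replicate 3 (-2.11). On TPM, Dlst (0.92), Sdhb (0.71) and Sdhd (0.64) were all under the fold limit.

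Pyruvate enters the cycle through the mitochondrial carrier and the pyruvate dehydrogenase complex, which kinases switch off and phosphatases switch on. Of 13 genes of this entry, 1 was called higher and 3 lower, beside 14.9% and 21.3% of all tested genes. Their median log2 fold change was 0.20. Pdk1, a kinase known as a target of the hypoxia response, was at 29.4, 15.3 and 23.9 FPKM at 2 months and 5.70, 5.71 and 6.14 FPKM at 18 months, and fell by 2.06 on the log2 scale (SE 0.29, adjusted p = 0.00318 by edgeR). Pdk2, another of these kinases, fell by 1.79 (adjusted p = 0.00181). Pdp1, a phosphatase that works against them, fell by 1.05 (adjusted p = 0.00701), with its call lost without 2-month replicate 1 (-0.99), 2-month replicate 3 (-0.98) or 18-month replicate 2 (-0.92). It kept its call in 5 of 11 other fits. The list holds further kinases, named after their values were seen. Pdk3 was at 7.67 ± 2.02 and 14.6 ± 0.23 FPKM (0.86, adjusted p = 0.0109), under the fold limit but higher, and Pdk4 at 6.77 ± 2.11 and 5.52 ± 1.75 FPKM (-0.36, adjusted p = 0.415). Mpc2, a subunit of the pyruvate carrier, rose from 2.63 ± 0.34 to 6.06 ± 0.16 FPKM (log2 fold change 1.13, adjusted p = 0.00129), and was under the fold limit on TPM (0.77). Pdha1, the catalytic alpha subunit of the complex and the highest of the list averaged over the 6 libraries, was at 19.9 ± 2.85 and 29.2 ± 0.33 FPKM (0.48, adjusted p = 0.0115). The ratio of Pdk1 to Pdha1 was 1.65, 0.658 and 1.27 at 2 months and 0.193, 0.197 and 0.211 at 18 months.

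Genes that feed or drain the cycle moved in both directions, as all tested genes did. Of 9 genes of anaplerosis and amino acid entry, 1 was called higher and 3 lower, beside 14.9% and 21.3% of all tested genes. Their median log2 fold change was 0.18. Pcx, pyruvate carboxylase, which makes oxaloacetate from pyruvate, fell by 2.00 on the log2 scale (SE 0.25, adjusted p = 0.00238 by edgeR), from 11.7, 7.23 and 11.2 FPKM to 3.04, 2.58 and 2.42 FPKM. Set against Cs, which condenses that oxaloacetate with acetyl-CoA, the ratio of Cs to Pcx was 0.591, 1.88 and 0.630 at 2 months and 8.84, 10 and 10.5 at 18 months. Me1, the cytosolic malic enzyme that makes NADPH, fell by 4.14 (adjusted p = 0.00417), from 51.2, 23.6 and 39.4 FPKM to 4.31, 1.26 and 1.41 FPKM.

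Pck1, the cytosolic enzyme that withdraws oxaloacetate for gluconeogenesis, fell by 2.71 on the log2 scale (adjusted p = 0.014) at levels of at most 0.818 FPKM, and its call was lost without 18-month replicate 2 (-2.48) or 18-month replicate 3 (-2.47). Me2, the mitochondrial malic enzyme, was at 0.982, 4.71 and 1.05 FPKM at 2 months and 11.9, 9.86 and 10.3 FPKM at 18 months, a log2 fold change of 2.21 (adjusted p = 0.0297). Its call was lost without 2-month replicate 1 (1.87), 2-month replicate 3 (1.89), 18-month replicate 1 (2.15), 18-month replicate 2 (2.27) or 18-month replicate 3 (2.24), and without 2-month replicate 2 the value was 3.28. Glud1, glutamate dehydrogenase and the highest of the list averaged over the 6 libraries, was at 24.2 ± 2.12 and 48.3 ± 2.71 FPKM (0.92, adjusted p = 0.00167), under the fold limit.

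Cytosolic counterparts of the enzymes were read beside them. Of 9 genes of this list, which also holds the carriers of the inner membrane, 1 was called higher and 1 lower. The shares over all tested genes were 14.9% and 21.3%. The median log2 fold change of the list was -0.05. Idh1, the cytosolic NADP+-dependent isocitrate dehydrogenase, rose from 9.20, 18.1 and 9.02 FPKM to 38.9, 32.1 and 30.0 FPKM (1.41, SE 0.27, adjusted p = 0.00825 by edgeR). The ratio of Idh2 to Idh1 was 2.57, 1.39 and 2.42 at 2 months and 0.712, 0.763 and 0.777 at 18 months, a fall whose size, unlike the ratios themselves, does not depend on the gene lengths. Mdh1, the cytosolic malate dehydrogenase of the malate-aspartate shuttle and the highest of the list averaged over the 6 libraries, was at 51.9 ± 2.11 and 46.8 ± 2.92 FPKM (-0.23, adjusted p = 0.0942). The ratio of Mdh2 to Mdh1 was 0.308, 0.421 and 0.306 at 2 months and 0.834, 0.898 and 0.991 at 18 months. Slc25a13, an aspartate-glutamate carrier of the shuttle, fell by 1.85 on the log2 scale (adjusted p = 0.00183).

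The ratio of Cs to Idh2, the enzymes with the largest and the smallest change, was 0.294, 0.541 and 0.324 at 2 months and 0.972, 1.06 and 1.09 at 18 months. The 7 ratios of genes given here were chosen with the fold changes known, so they are a description and were not tested.

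Acod1, which diverts cis-aconitate to itaconate and is known from activated macrophages, had 0, 20 and 0 counts in 2-month replicates 1, 2 and 3 and 477, 311 and 262 counts in 18-month replicates 1, 2 and 3. It was the 1 gene called of 3 in the itaconate and hydroxyglutarate list, beside 36.3% of all tested genes called in either direction. Its log2 fold change was 5.50 ± 1.46 (SE) with an adjusted p of 0.0243 by edgeR. The call was lost without 2-month replicate 3 (4.94), 18-month replicate 1 (5.28), 18-month replicate 2 (5.56) or 18-month replicate 3 (5.66), with adjusted p of 0.05 to 0.0662. Without 2-month replicate 2 both other 2-month libraries were at 0 counts and the fitted value was 11.3, which depends on the prior count, so that 5.50 rests on the 20 counts of 1 library. Among the 2-month libraries Acod1 was seen only in replicate 2. That library had the most neutrophil marker RNA of its age, and also the most monocyte and macrophage, erythroid and lymphocyte marker RNA. The cell source of Acod1 was not tested and cannot be told apart among these. D2hgdh, which clears hydroxyglutarate and is the highest of the list averaged over the 6 libraries, was at 5.45 ± 0.29 and 3.10 ± 0.50 FPKM (-0.90, adjusted p = 0.00493). It was called lower by limma on TPM (-1.25, adjusted p = 0.00295) and by edgeR without 18-month replicate 1 (-1.01, adjusted p = 0.00716). Of 3 genes that attach lipoate, the cofactor that Dlst carries, none was called by edgeR or DESeq2 on the 6 libraries. 1 was called lower by limma on TPM, and by edgeR without 2-month replicate 2 or without 18-month replicate 2. By adjusted p alone, as by unadjusted p below 0.05, 1 was higher and 1 lower. By adjusted p alone, 23.4% of all tested genes were higher and 27.9% lower. Lias, lipoate synthase and the highest of the lipoate genes on the same average, was at 3.81 ± 0.09 and 5.86 ± 0.14 FPKM (0.54, adjusted p = 0.0077).

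**Figure D4:**
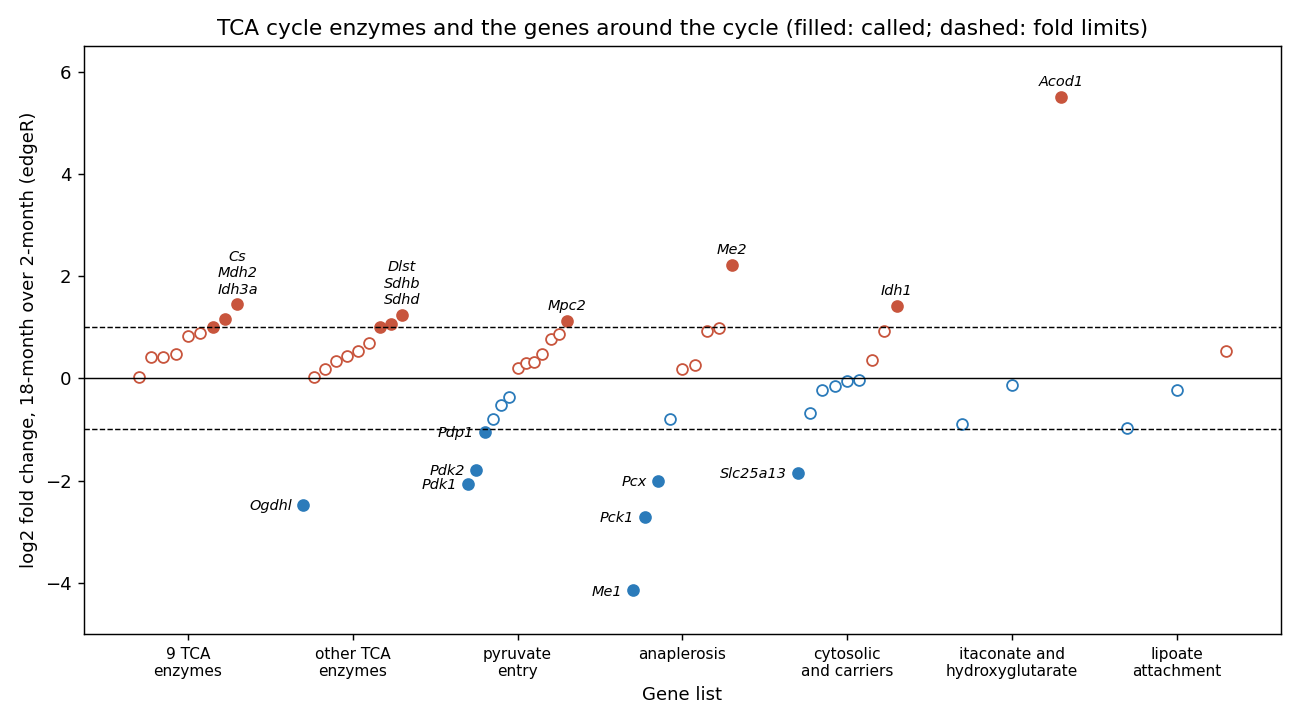
Log2 fold change of 18-month over 2-month cartilage by edgeR for the 9 TCA cycle enzymes and the genes of 6 lists around the cycle, with red for higher, blue for lower, filled points for called genes and dashed lines at the fold limits. The 9 enzymes lie between 0.02 and 1.45, while the anaplerosis genes span -4.14 to 2.21.

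The genes whose profile over the 6 libraries was nearest to the median profile of the 9 enzymes were sought among the 7678 other tested genes whose FPKM averaged 5 or more. The measure was the root mean square difference of centred log2 CPM. The nearest were Vcpip1 (0.0171), a deubiquitinase of Golgi assembly, Rapgef6 (0.0186), an exchange factor for Rap GTPases, Ptpn12 (0.0323), a tyrosine phosphatase, Irak1 (0.0329), a kinase of interleukin-1 receptor signaling, and Pmm2 (0.0406), a phosphomannomutase of glycosylation. Their log2 fold changes were 0.75 to 0.82. The 9 enzymes themselves differed from their median profile by 0.0763 (Suclg1) to 0.413 (Cs). The named genes thus lay nearer to the median profile than any of the 9 enzymes did. These points share libraries and depth, and the likeness is a description over 6 samples.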

How the data were processed

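Poly(A) RNA of articular cartilage was sequenced as strand-specific, paired-end libraries whose adapters carried unique molecular identifiers. The submitters' processing notes name cutadapt 1.9, HISAT2 2.0.4, UMI-tools, StringTie 1.3.4d, DESeq2 and edgeR, and the counting program, genome build and annotation are not given in the sources used here. The authors deposited counts per gene, used as they stand, and FPKM per gene, which carry the gene length of their annotation. Of the table's 33971 gene coordinates, 99.7% were found in GENCODE M21 on GRCm38 and 91.3% were identical to it.

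Counts were filtered with filterByExpr, TMM-scaled and tested with edgeR 4.0.16 (R 4.3.3) without covariates, two-sided, with Benjamini-Hochberg adjustment over 20397 genes. Limma 3.58.1 on log2(FPKM + 0.1) and DESeq2 1.42.0 were alternatives, as were other size factors, filters, a pseudocount of 1, glmTreat, a replicate block and leaving out each library. TPM and quantile scaling, and lengths of the longest coding transcript, were added after seeing the data. SE is the fold change over the root of the F statistic. The scripts were tested on simulated counts. Replicate libraries all differed by more than counting error and were kept as separate samples.

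The 9 enzymes and the gene lists were chosen with earlier results of these data known, so no list was tested as a set. Beside the 9, the text names, in each list, the called genes and the gene with the highest mean FPKM, and the 5 genes with the nearest profile. Ahsp and Lep, of the marker lists, were not found in the table by name. A gene of the lists around the cycle and an overlapping gene are not reported here.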

Additional observations from a re-analysis of the deposited data

How the results depend on the processing

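Across 7 fits with other size factors, filters or tests (median-of-ratios, total counts, TMM without the 100 most abundant genes, no count filter, limma on FPKM with either pseudocount, DESeq2), all 9 fitted values kept their sign, Cs and Mdh2 stayed called, and the median log2 fold change of the 9 was 0.81 to 0.91. For Idh2 the value was only 0.027 to 0.098 in these fits, with an adjusted p of 0.45 (DESeq2) or more, which shows no rise. Idh3a lost its call there in limma with a pseudocount of 1 (0.98). The number of called genes was 5258 in that fit and 9594 with DESeq2, against 7401. Tested against a fold change of 2 with glmTreat, 4033 genes, 0 of the 9 enzymes and 6 genes of the lists around the cycle were called, against 7401, 3 and 15, as this null is stricter by construction. On TPM, 1 enzyme was called and the median was 0.473, and after quantile normalization 1 was called and the median was 0.645. The cause of this difference in scale was not tested. Leaving out 1 library gave 5640 to 9583 called genes, 2 to 4 called enzymes, medians of 0.77 to 0.91 and 9 to 18 called genes in the lists. The counts over all genes and over the lists were lowest without 2-month replicate 3, the median was lowest without 2-month replicate 1, and all 4 values were highest without 2-month replicate 2. Of the 7401 calls, 7104 were shared with the 9583 made without 2-month replicate 2. The difference in the Suclg2 share ranged from -1.89 to 0.54 percentage points. Same-numbered libraries did not deviate together (correlations 0.034, 0.044 and -0.024), so the numbers do not pair them. With the replicate block 6032 genes, 3 enzymes and 13 listed genes were called and the median of the enzymes was 0.83. With 3 libraries per age, no exact permutation p below 0.1 can be reached.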
